A study of Rattus norvegicus with 5 samples.

Results

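The Wnt pathway members described here are 60 rat genes measured by 106 probe sets, out of 14217 genes and 20826 probe sets that carry a single gene symbol in the platform annotation of the array. They were chosen by symbol alone and comprise Wnt ligands, the R-spondins and Porcn, receptors, secreted antagonists, cytoplasmic transducers and nuclear effectors. The laser-captured cells came from 5-week-old male wild type Sprague-Dawley rats, which received no treatment. The first 4 groups are zones of the mandibular condylar cartilage (MCC) and run from the fibrous zone (FZ) at the surface through the proliferative zone (PZ) and the mature zone (MZ) to the hypertrophic zone (HZ). The last holds chondrocytes of the knee, from below the surface of the femoral condylar cartilage (FCC), against which the zones were set. Each of the 5 groups was hybridized to 1 array, made from the pooled lysates of 30 sections per group in the labels, whereas the methods give more sections for FZ. How many animals each pool holds is not stated in the methods or labels.

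Wnt proteins are secreted lipid-modified ligands that bind Frizzled receptors together with the co-receptors Lrp5 and Lrp6. In the canonical branch, receptor engagement stops a complex of Axin, Apc, Gsk3b and casein kinase 1 from marking beta-catenin for destruction, and beta-catenin then acts in the nucleus with TCF and LEF factors. In mouse cartilage the pathway keeps the joint surface apart from growing cartilage and affects the pace at which chondrocytes mature, and secreted antagonists are a recognised product of articular chondrocytes.

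Every value is the log2 value of a probe set relative to its own median over the 5 arrays, so 1 unit is a 2-fold and 2 units a 4-fold difference between arrays. Levels of different genes cannot be compared on this scale, and a value of 0.00 marks the middle array, not absence. With 1 array per group no difference has a replicate check, and no test was possible. For the 26 members with several probe sets, a difference varied between the probe sets of 1 gene by a median SD that was lowest at 0.14 (MZ minus HZ) and highest at 0.38 (PZ minus FCC) among the 7 comparisons made here. The 18 hybridization controls averaged −0.15 in FZ, 0.44 in PZ, −0.02 in MZ, −0.03 in HZ and 0.50 in FCC. Equalizing them would put the median over all these probe sets at 0.65 for FZ minus FCC, 0.09 for PZ minus FCC, 0.53 for MZ minus FCC, 0.525 for HZ minus FCC, −0.16 for superficial minus deep zones and 0.58 for FZ minus PZ. The 5′ minus 3′ difference of the beta-actin control probe sets was 1.24 in FCC and between −0.24 and 0.14 in the MCC zones, which goes with every comparison against FCC. The GAPDH control did not set FCC apart, at −0.21 there and −0.13 in MZ, and was highest in PZ at 1.36. The part of RNA quality in the comparisons against FCC was not tested.

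The labelled zones were compared with marker lists, using 1 mean value per gene and a difference of at least 1. Averaged over the MCC zones and set against FCC, 11 of 14 hyaline cartilage genes were lower and 0 higher. On the same measure the MCC was higher for 4 of 6 osteoclast, 4 of 11 lymphocyte, 3 of 8 myeloid, 2 of 8 megakaryocyte, 2 of 9 hypertrophy and 1 of 5 osteoblast genes, and 0 of 8 erythroid, 9 endothelial and 6 adipocyte genes passed either way. Of 13 tendon genes 4 were higher and 3 lower in the MCC, and of 6 smooth muscle genes 1 was higher and 1 lower. In the same comparison 1 hypertrophy gene and 2 of 7 skeletal muscle genes were lower in the MCC. In HZ minus FCC the median over probe sets was 2.05 for osteoclast, 1.17 for myeloid, 0.98 for lymphocyte and 0.96 for endothelial genes. Their part in the member differences against FCC was not tested. With FZ and PZ averaged as superficial zones and MZ and HZ as deep zones, 9 of 13 tendon and fibrous tissue genes were higher and 0 lower. Of the same hyaline genes 3 were higher and 6 lower in the superficial zones. By the same measure 4 of 9 hypertrophy genes, 1 of 5 osteoblast, 2 of 6 osteoclast, 7 of 8 erythroid, 5 of 11 lymphocyte, 5 of 8 myeloid, 4 of 8 megakaryocyte, 5 of 9 endothelial and 1 of 6 adipocyte genes were lower in the superficial zones, with 0 higher in each. Smooth muscle had 2 of 6 genes higher and 0 lower, and skeletal muscle 0 of 7 either way. Fewer cells of a type and less RNA per cell cannot be told apart in pooled captures.

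Of the 106 member probe sets, 13 from 12 genes varied by at least 2 between their highest and lowest array, which is 12.3% of them against a background of 7.0% of all probe sets. At a range of at least 1 the number was 31, from 25 genes, or 29.2% against 28.9%. The median range was 0.59 for the members and 0.63 for all probe sets. By the median and by the share at 1, the members varied about as much as the array did, whereas their share at 2 was larger. Variation was uneven between roles. Secreted antagonists had a median range of 1.05 over 16 probe sets, nuclear effectors 0.74 over 19, receptors 0.65 over 15, ligands 0.52 over 17, cytoplasmic transducers 0.50 over 34, and the R-spondins with Porcn 0.35 over 5. None of the 34 transducer probe sets reached a range of 2, and 5 of the 16 antagonist probe sets did.

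**Figure D1:**
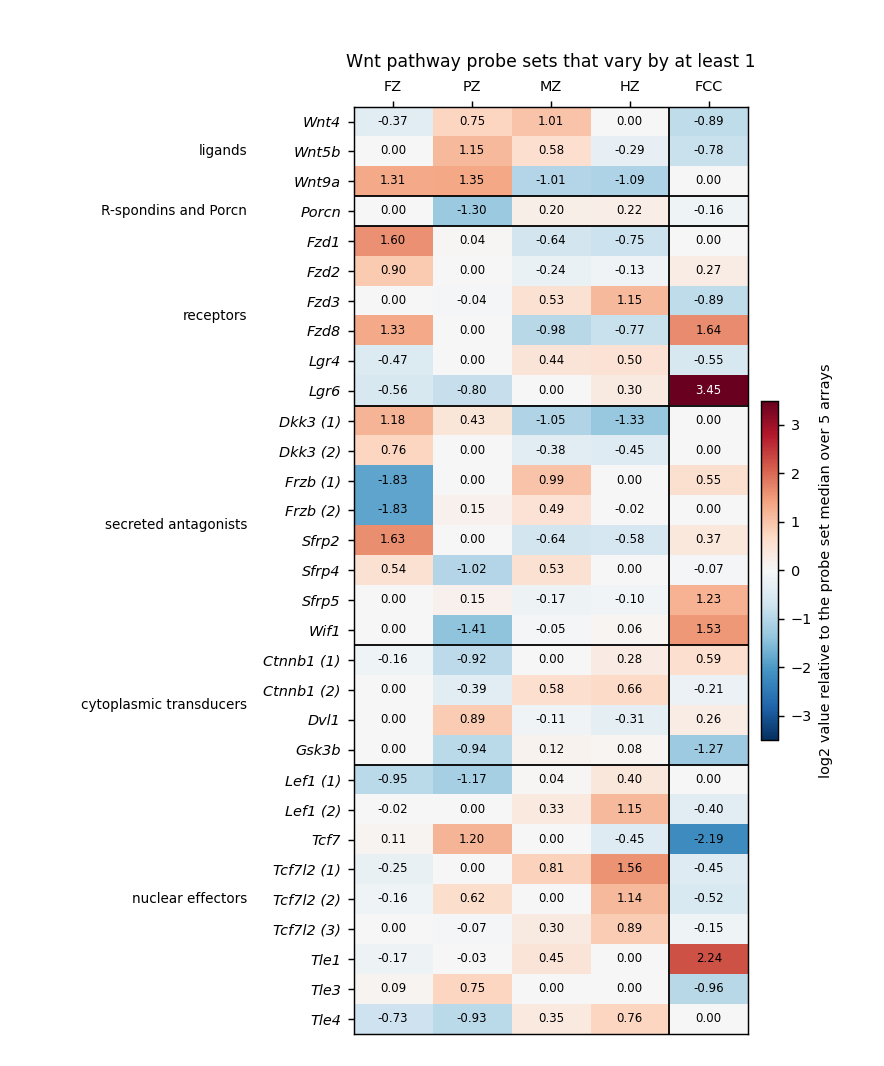
Log2 values (0 at the middle array of each row) of the 31 member probe sets with a range of at least 1. Rows are probe sets grouped by role (a number in parentheses separates probe sets of a gene) and columns are arrays, 1 per group. The widest row is Lgr6, at 3.45 in FCC.

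Among the ligands, Wnt9a, which is made in the joint-forming interzone of the mouse embryo, separated the superficial zones from the deep ones. It was at 1.31 in FZ, 1.35 in PZ, −1.01 in MZ, −1.09 in HZ and 0.00 in FCC. FZ and PZ lay within 0.04 of each other and MZ and HZ within 0.08, with FCC between the pairs. The superficial mean exceeded the deep mean by 2.38, the only member probe set past 2 in that comparison, and the value stood at 1 probe set.

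Wnt4 and Wnt5b, ligands that act on chondrocyte maturation in the mouse and signal largely outside the beta-catenin branch in the case of Wnt5b, had another shape. Wnt5b was at 0.00 in FZ, 1.15 in PZ, 0.58 in MZ, −0.29 in HZ and −0.78 in FCC. Wnt4 was at −0.37 in FZ, 0.75 in PZ, 1.01 in MZ, 0.00 in HZ and −0.89 in FCC. Both were high in the 2 middle zones and lowest in FCC, with Wnt5b highest in PZ and Wnt4 in MZ. The largest differences from FCC were 1.93 for Wnt5b in PZ and 1.90 for Wnt4 in MZ, just short of 4-fold.

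The other 10 ligands, Wnt1, Wnt2, Wnt2b, Wnt5a, Wnt6, Wnt7a, Wnt8b, Wnt10a, Wnt11 and Wnt16, varied by less than 1 in each of their probe sets, between 0.17 for the flatter probe set of Wnt7a and 0.72 for Wnt16. Wnt16, a ligand of the superficial layer of articular cartilage in the mouse, was at 0.00 in FZ, 0.50 in PZ, −0.22 in MZ, −0.22 in HZ and 0.31 in FCC. Since the values hold no level, a small range can belong to a steady gene or to one near background.

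Porcn, the acyltransferase that attaches the lipid to Wnt proteins, was at 0.00 in FZ, −1.30 in PZ, 0.20 in MZ, 0.22 in HZ and −0.16 in FCC by its more variable probe set. PZ stood alone as low there, while the other probe set of Porcn had a range of 0.35 and was at −0.25 in PZ. Rspo1 and Rspo3, secreted proteins that strengthen Wnt signalling, had ranges of 0.07 to 0.40.

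Lgr6 showed the widest variation of all members. This receptor of R-spondins was at −0.56 in FZ, −0.80 in PZ, 0.00 in MZ, 0.30 in HZ and 3.45 in FCC. FCC lay 3.14 above the next array, while the 4 MCC zones spanned 1.10. The differences from FCC were −4.01 for FZ and −4.25 for PZ, then −3.45 for MZ and −3.14 for HZ, each past 4-fold, and they rest on 1 probe set. Its relatives did not share this pattern, since Lgr5 had a range of 0.32 and Lgr4 was at −0.47 in FZ, 0.00 in PZ, 0.44 in MZ, 0.50 in HZ and −0.55 in FCC.

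Frizzled receptors, the seven-pass receptors for Wnt ligands, took different shapes. Fzd1 was at 1.60 in FZ, 0.04 in PZ, −0.64 in MZ, −0.75 in HZ and 0.00 in FCC. FZ lay 1.56 above every other array, and the order from surface to depth was unbroken. Fzd2 had a smaller range of 1.15, with 0.90 in FZ, 0.00 in PZ, −0.24 in MZ, −0.13 in HZ and 0.27 in FCC, so that FZ was again the high array.

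Fzd8 was at 1.33 in FZ, 0.00 in PZ, −0.98 in MZ, −0.77 in HZ and 1.64 in FCC. FCC and FZ were its high arrays, 0.31 apart, and the deep zones its low ones. The difference from FCC was −2.62 in MZ and −2.41 in HZ, against −0.31 in FZ.

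Fzd3 ran the other way. It was at 0.00 in FZ, −0.04 in PZ, 0.53 in MZ, 1.15 in HZ and −0.89 in FCC, so HZ was highest and FCC lowest, 2.04 apart. Fzd4, Fzd5, Fzd6, Lgr5 and the co-receptors Lrp5 and Lrp6 varied by less than 1 in each probe set, from 0.05 for 1 probe set of Fzd5 to 0.87 for Fzd6.

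**Figure D2:**
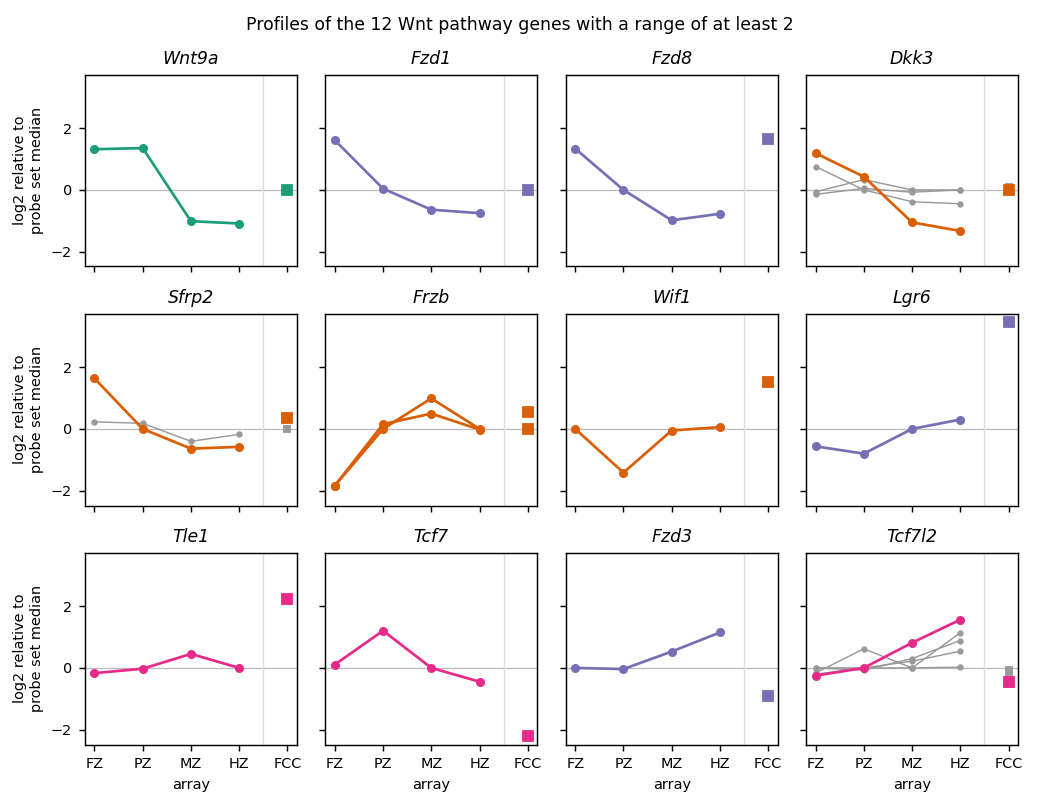
Log2 values relative to the probe set median (vertical axis) in the 5 arrays (horizontal axis) for the 12 member genes with a probe set that varied by at least 2. Coloured lines join the MCC zones for those probe sets, coloured squares are FCC, and grey marks are the other probe sets of the same gene. Wnt9a sits at 1.31 and 1.35 in the superficial zones and at −1.01 and −1.09 in the deep ones, and both probe sets of Frzb lie at −1.83 in FZ.

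The secreted antagonists held the clearest difference inside the superficial layer. Frzb, also known as Sfrp3, is a Wnt-binding protein first isolated from articular cartilage. By its more variable probe set it was at −1.83 in FZ, 0.00 in PZ, 0.99 in MZ, −0.0015 in HZ and 0.55 in FCC. The second probe set gave −1.83 in FZ, 0.15 in PZ, 0.49 in MZ, −0.02 in HZ and 0.00 in FCC. In both, FZ was low by itself, at least 1.81 under every other array, and MZ was highest. The difference from FCC in FZ was −2.38 by the first and −1.83 by the second.

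Hyaline cartilage markers were lowest in FZ as well, with a median over the 14 genes of −1.69 in FZ, 0.00 in PZ, 0.17 in MZ, −0.71 in HZ and 1.48 in FCC. The marker median was highest in FCC and Frzb in MZ. The part of hyaline cartilage content in the Frzb values was not tested.

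Sfrp2 and Dkk3 were highest in FZ. Sfrp2, a Frizzled-related antagonist of fibrous tissues, was at 1.63 in FZ, 0.00 in PZ, −0.64 in MZ, −0.58 in HZ and 0.37 in FCC by its more variable probe set. The other gave 0.23 in FZ, 0.18 in PZ, −0.40 in MZ, −0.18 in HZ and 0.00 in FCC, with the same high array and a range of 0.63. Sfrp2 was thus highest in the array where Frzb was lowest.

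Dkk3, a divergent member of the Dickkopf family, has 4 probe sets that disagree in size. The widest was at 1.18 in FZ, 0.43 in PZ, −1.05 in MZ, −1.33 in HZ and 0.00 in FCC, lower in each deeper zone. The second was at 0.76 in FZ, 0.00 in PZ, −0.38 in MZ, −0.45 in HZ and 0.00 in FCC, the same order at a smaller size. The remaining 2 had ranges of 0.19 and 0.39 and did not show it. The mean over all 4 probe sets gives 0.88 for FZ minus HZ, against 2.51 by the widest alone.

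Wif1 and Sfrp5 were highest in FCC. Wif1, which binds Wnt ligands directly and is made in articular cartilage of the mouse, was at 0.00 in FZ, −1.41 in PZ, −0.05 in MZ, 0.06 in HZ and 1.53 in FCC. FCC stood 1.47 above and PZ 1.36 under the other 3 arrays, which lay close together. Sfrp5 was at 0.00 in FZ, 0.15 in PZ, −0.17 in MZ, −0.10 in HZ and 1.23 in FCC, so that only FCC departed.

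Sfrp4 had 1 probe set at 0.54 in FZ, −1.02 in PZ, 0.53 in MZ, 0.00 in HZ and −0.07 in FCC. PZ was its low array, whereas the other probe set had a range of 0.49 with −0.0050 in PZ. Sfrp1 varied by 0.32 to 0.89 over 3 probe sets and Dkk2 by 0.10. The 5′ minus 3′ difference of the GAPDH control was 1.36 in PZ and between −0.21 and 0.27 in the other arrays. That of beta-actin did not set PZ apart, at 0.14 in both PZ and FZ. Wif1, Porcn and Sfrp4 are the members whose lowest array is PZ by at least 0.95, and the part of RNA quality in this was not tested.

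The cytoplasmic transducers were the flattest large group. Over 34 probe sets of 14 genes, 17 had a range under 0.50 and 4 reached 1. Apc, Axin1, Axin2, the casein kinase 1 genes Csnk1a1, Csnk1d, Csnk1e, Csnk1g1, Csnk1g2 and Csnk1g3, and the Dishevelled genes Dvl2 and Dvl3 stayed under 1 in each probe set, between 0.07 for Csnk1g1 and 0.96 for the widest probe set of Csnk1g3. Axin2, both a scaffold of the destruction complex and a widely used target gene of the pathway, was at 0.44 in FZ, 0.28 in PZ, 0.00 in MZ, −0.25 in HZ and 0.00 in FCC.

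Gsk3b, the kinase of the destruction complex, was at 0.00 in FZ, −0.94 in PZ, 0.12 in MZ, 0.08 in HZ and −1.27 in FCC. PZ and FCC were both low, and the other 3 arrays lay together. Ctnnb1, which encodes beta-catenin, has 4 probe sets with ranges of 0.13, 0.16, 1.05 and 1.51, and the 2 wider ones disagreed. The widest was at −0.16 in FZ, −0.92 in PZ, 0.00 in MZ, 0.28 in HZ and 0.59 in FCC. The next was at 0.00 in FZ, −0.39 in PZ, 0.58 in MZ, 0.66 in HZ and −0.21 in FCC. PZ was lowest in both, and FCC was highest in the first but second lowest in the other.

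Dvl1, a Dishevelled protein that relays the receptor signal, was at 0.00 in FZ, 0.89 in PZ, −0.11 in MZ, −0.31 in HZ and 0.26 in FCC by the widest of 3 probe sets, with ranges of 0.79 and 0.84 for the others. PZ was the high array in all 3.

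The nuclear effectors showed the second widest member, Tcf7. This gene encodes TCF1, a DNA-binding partner of beta-catenin that is also strongly made in T cells. It was at 0.11 in FZ, 1.20 in PZ, 0.00 in MZ, −0.45 in HZ and −2.19 in FCC. FCC lay 1.75 under the lowest MCC zone and PZ 1.09 above the next array. The difference from FCC was 2.30 for FZ and 3.40 for PZ, then 2.19 for MZ and 1.75 for HZ, by 1 probe set. Over the 11 lymphocyte genes the median was −0.0035 in FZ, −0.13 in PZ, 0.62 in MZ, 0.98 in HZ and −0.44 in FCC, with a range of −0.66 to 0.25 in PZ and 0.13 to 2.45 in HZ. Tcf7 was highest in PZ and the marker median in HZ, and the part of lymphocytes in the Tcf7 values, in PZ as in FCC, was not tested.

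The TCF and LEF factors recognise a short DNA motif, searched here as CTTTGAT on both strands in the RefSeq promoters of build GRCr8 (250 bases before to 50 after the start). It occurred in 2 of the 49 member promoters in that table, or 4.08%, and in 3.63% of all 33469 promoters, a share close to that of the members. The 2 are shown because Axin2 is the feedback target of the pathway and Tcf7 the effector that varied most. Capitals mark the motif, which begins 132 bases before the start in Axin2 (chr10:94398535-94398834, plus strand). In Tcf7 (chr10:36954230-36954529, minus strand) it begins 4 bases before the start and runs across it, over positions 247 to 253 of the window. A match of letters is not a bound site.
Axin2: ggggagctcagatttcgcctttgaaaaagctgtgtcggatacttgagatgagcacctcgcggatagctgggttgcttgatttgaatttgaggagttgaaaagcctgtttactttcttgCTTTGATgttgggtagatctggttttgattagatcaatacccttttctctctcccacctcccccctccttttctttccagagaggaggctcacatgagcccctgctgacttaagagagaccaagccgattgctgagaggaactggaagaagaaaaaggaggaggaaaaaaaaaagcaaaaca
Tcf7: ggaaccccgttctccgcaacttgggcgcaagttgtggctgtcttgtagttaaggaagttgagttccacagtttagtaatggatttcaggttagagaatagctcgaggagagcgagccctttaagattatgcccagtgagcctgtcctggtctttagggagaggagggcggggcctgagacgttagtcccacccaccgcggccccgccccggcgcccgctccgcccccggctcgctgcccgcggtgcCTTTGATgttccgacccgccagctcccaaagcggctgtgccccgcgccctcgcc
Although both promoters hold the same letters, the 2 genes differed in profile, Tcf7 with a range of 3.40 and Axin2 with 0.69.

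Tcf7l2 and Lef1, the other DNA-binding partners of beta-catenin with wide probe sets, were highest in HZ. The widest of 5 probe sets of Tcf7l2 was at −0.25 in FZ, 0.00 in PZ, 0.81 in MZ, 1.56 in HZ and −0.45 in FCC. HZ was the highest array in all 5 probe sets and FCC the lowest in 4 of them, with ranges of 0.09, 0.74, 1.04, 1.66 and 2.01. Lef1 was at −0.02 in FZ, 0.00 in PZ, 0.33 in MZ, 1.15 in HZ and −0.40 in FCC by 1 probe set. By the other it was at −0.95 in FZ, −1.17 in PZ, 0.04 in MZ, 0.40 in HZ and 0.00 in FCC, so HZ was highest in both. The lymphocyte median was also highest in HZ, at 0.98, and second in MZ, and its part in the Lef1 and Tcf7l2 values was not tested.

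Tle1, Tle2, Tle3 and Tle4 encode Groucho co-repressors that hold TCF targets silent. Tle1 was at −0.17 in FZ, −0.03 in PZ, 0.45 in MZ, 0.00 in HZ and 2.24 in FCC, with FCC 1.79 above the next array. Tle3 was instead lowest in FCC, at 0.09 in FZ, 0.75 in PZ, 0.00 in MZ, 0.00 in HZ and −0.96 in FCC. Tle4 was at −0.73 in FZ, −0.93 in PZ, 0.35 in MZ, 0.76 in HZ and 0.00 in FCC by 1 probe set, low in both superficial zones, while its other probe set had a range of 0.09. Tcf7l1, Tle2, Tle5 and Tle6 varied by 0.10 to 0.66.

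Each MCC zone was then set against FCC, the comparison the study made with a threshold of 2. In FZ, 1 member probe set was higher (Tcf7; background 0.965%) and 3 were lower (Lgr6, Tle1 and Frzb; background 1.33%). In PZ, 1 was higher (Tcf7; 0.831%) and 3 were lower (Lgr6, Wif1 and Tle1; 1.75%). MZ had 1 higher (Tcf7; 1.16%) and 2 lower (Lgr6 and Fzd8; 1.4%), and HZ had 2 higher (Fzd3 and Tcf7l2; 1.75%) and 3 lower (Lgr6, Fzd8 and Tle1; 2.0%). Of 106 probe sets, 1 is 0.943%, 2 are 1.89% and 3 are 2.83%, so each share rests on 1 to 3 probe sets, and the shares of higher members lie close to the background. All 4 comparisons share the FCC array. After the arrays were shifted to equal hybridization controls, Frzb and Tle1 in FZ and Fzd8 and Tle1 in HZ were no longer 4-fold lower, and Lgr6 was still lower in all 4 zones. The counts of higher and lower members then became 2 and 1 in FZ, where 3.31% and 0.783% of all probe sets passed under the same shift. For MZ they were 2 and 2 (3.15% and 0.893%), and for HZ 5 and 1 (4.17% and 1.31%).

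At a difference of at least 1, higher members numbered 7 for FZ (background 6.42%) and 6 for PZ (5.9%), then 6 for MZ (7.6%) and 8 for HZ (8.76%). Lower members numbered 6 for FZ (4.0%) and 8 for PZ (7.76%), then 8 for MZ (4.58%) and 7 for HZ (5.73%). Of the 106, 6 are 5.66%, 7 are 6.60% and 8 are 7.55%, so the largest gap to the background is the 7.55% of lower members in MZ against 4.58%. The shift to equal hybridization controls raises each MZ minus FCC difference equally, and the member median from 0.00 to 0.52. The differences of −1.01 for Wnt9a, −1.004 for Sfrp2, −1.05 for Dkk3 and −1.40 for Sfrp5 would then fall short of 1. Those of Lgr6, Fzd8, Tle1 and Wif1 would not. Without that shift, the median over the members lay between −0.01 for HZ and 0.09 for PZ, and that over all probe sets between 0.00 and 0.03. Among roles the nuclear effectors stood highest in the deep zones, with medians of 0.33 in MZ and 0.35 in HZ. In HZ 5 of 19 probe sets were at least 1 higher, but they belong to Tcf7, Lef1 and Tcf7l2 only. Those of Tcf7l2 differed by 1.04, 1.66 and 2.01, and the other Lef1 probe set by 0.40. Secreted antagonists had medians of −0.14 in MZ and −0.14 in HZ, with 4 and 3 of 16 probe sets at least 1 lower and 0 higher. The lower ones in HZ (Dkk3, Sfrp5 and Wif1) would all fall short of 1 with the shift. Ligands had a median of 0.23 in PZ and −0.10 in FZ.

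**Figure D3:**
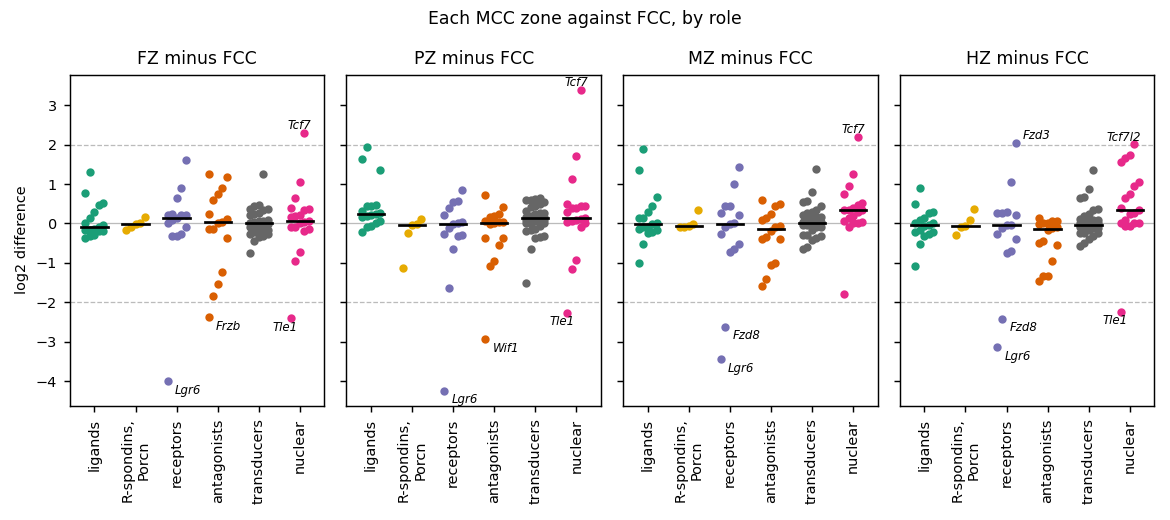
Log2 difference between each MCC zone and FCC (vertical axis) for the 106 member probe sets, grouped by role (horizontal axis), with 1 dot per probe set, a black bar at the median of each role and dashed lines at 2 and −2. Names mark probe sets past the dashed lines. Lgr6 is the lowest dot in each panel, from −4.25 in PZ to −3.14 in HZ.

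Members were also counted by the single array that stood at least 1 away from all the others. FCC stood above for 4 members, Lgr6, Tle1, Wif1 and Sfrp5 (background 2.44%), and under for 1, Tcf7 (2.25%). FZ stood above for Fzd1 and Sfrp2 (0.581%) and under for both probe sets of Frzb (0.13%). PZ stood above for Tcf7 (0.346%) and under for Wif1 and Porcn (2.21%). For MZ there were 0 above (0.101%) and 0 under (0.0192%), and for HZ likewise 0 above (0.168%) and 0 under (0.327%).

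Between superficial and deep zones of the MCC, a member was counted when the means differed enough and both FZ and PZ lay on the same side of both MZ and HZ. At 2, 1 was higher in the superficial zones (Wnt9a; background 0.682%) and 0 were lower (0.259%). At 1, 5 were higher (Wnt9a, Dkk3, Fzd8, Fzd1 and Sfrp2; 2.17%) and 3 were lower (Tle4, Tcf7l2 and Lef1; 3.48%). These are 4.72% and 2.83% of the members. By these probe sets the higher side held ligand, receptors and antagonists, and the lower side nuclear effectors alone. Tle4, Tcf7l2, Lef1, Dkk3 and Sfrp2 have several probe sets each. By the mean over these, the difference was −0.70 for Tle4, −0.55 for Tcf7l2, −1.01 for Lef1, 0.73 for Dkk3 and 0.96 for Sfrp2. Among them only Lef1 then still passed 1. Frzb differed by −1.41 and −1.08 in the means but was not counted, since only FZ was low.

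The 13 tendon and fibrous tissue genes had medians of 1.04 in FZ, 0.35 in PZ, 0.00 in MZ, −0.83 in HZ and 0.00 in FCC, the same order of MCC zones as Fzd1 and Dkk3. Markers of blood cells and endothelium ran the other way, as given above. Their part in the superficial and deep differences was not tested.

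**Figure D4:**
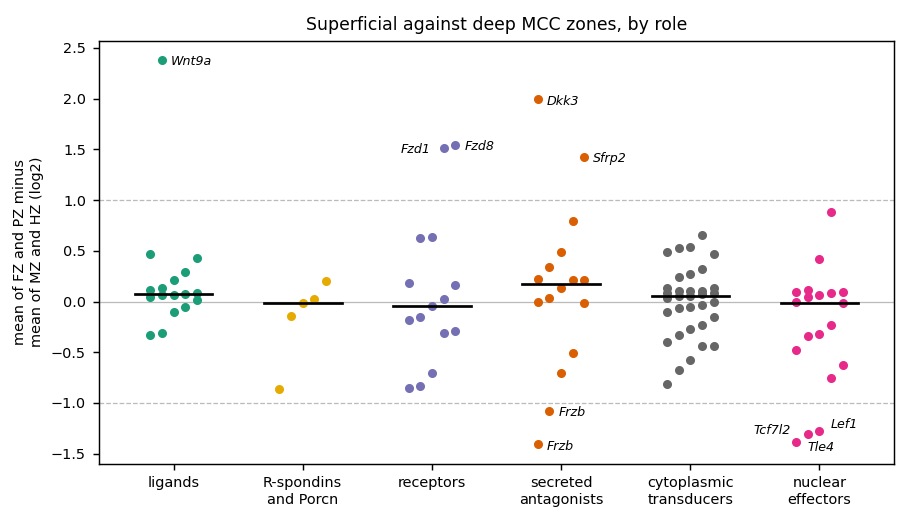
Superficial minus deep log2 difference, from the average of the zones on each side (vertical axis), for the 106 member probe sets by role (horizontal axis), with 1 dot per probe set, a black bar at the median of each role and dashed lines at 1 and −1. Wnt9a is the highest dot at 2.38. Frzb is named at −1.41 and −1.08 although it is low in FZ alone.

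FZ and PZ differed from each other by at least 2 for 0 members in either direction, where the background was 0.6% higher and 0.125% lower in FZ. After the shift to equal hybridization controls 3 were higher in FZ (Fzd1, Sfrp2 and Sfrp4), or 2.83% against 2.37% of all probe sets, and 0 were lower. At 1, 6 were higher in FZ (Fzd1, Fzd8, Porcn, Sfrp2, Sfrp4 and Wif1; 6.54%) and 5 were lower (both probe sets of Frzb, and Tcf7, Wnt4 and Wnt5b; 1.47%). The lower members make 4.72% of 106. Tcf7, Wnt4 and Wnt5b were thus higher in PZ by at least 1 before that shift. Porcn, Sfrp4 and Wif1 are those with a low value in PZ described above. The shift raises each FZ minus PZ difference equally and brings the median over all probe sets to 0.58. The differences of −1.09 for Tcf7, −1.12 for Wnt4 and −1.15 for Wnt5b would then fall short of 1. Those of Frzb, −1.83 and −1.99, would not. Counts at 1 were not repeated with the shift.

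MZ and HZ differed least. At 2 there were 0 members in either direction, with a background of 0.192% higher and 0.0% lower in MZ. At 1 there was 1 higher, Wnt4 (0.845%), and 1 lower, a probe set of Tcf7l2 (0.307%). The order for Wnt4 was 1.01 in MZ and 0.00 in HZ, and that for Tcf7l2 0.00 in MZ and 1.14 in HZ.

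The rule names the Wisp proteins too, matricellular proteins of the Ccn family, but the annotation lists them as Ccn4, Ccn5 and Ccn6, so these 3 genes were kept apart from the 60. Ccn6, formerly Wisp3, is mutated in an inherited human disease of joint cartilage. It was at −1.74 in FZ, 0.22 in PZ, 0.00 in MZ, −1.73 in HZ and 4.22 in FCC. FCC lay 4.01 above the next array, and FZ and HZ were low together. Ccn4, formerly Wisp1 and known as a target of beta-catenin, was at 0.00 in FZ, −0.52 in PZ, 0.41 in MZ, 0.81 in HZ and −1.52 in FCC, so that HZ was highest and FCC lowest. Ccn5, formerly Wisp2, was at 0.00 in FZ, −0.61 in PZ, 0.00 in MZ, −0.02 in HZ and 0.45 in FCC.

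Further genes of the pathway came from a list of 48, of which 38 were measured by 67 probe sets, and 7 genes varied by at least 2. Gpc3, a cell surface proteoglycan that modulates Wnt and hedgehog signals, was at 3.09 in FZ, 1.40 in PZ, −0.22 in MZ, −0.20 in HZ and 0.00 in FCC by 1 probe set, high in both superficial zones. The other had a range of 0.47 with its highest value, 0.28, in MZ, and did not show this. Lrp4, a receptor for sclerostin, was at 0.00 in FZ, −0.30 in PZ, 0.89 in MZ, 0.90 in HZ and −1.28 in FCC, and Nkd2, an inhibitor of Dishevelled, at −0.20 in FZ, 0.00 in PZ, 0.18 in MZ, 0.50 in HZ and −1.57 in FCC. FCC was lowest in both.

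Daam2, a formin of the Dishevelled branch, was at 1.22 in FZ, −0.09 in PZ, −0.27 in MZ, 0.00 in HZ and 2.19 in FCC. Apc2, a relative of Apc, was at 2.66 in FZ, −0.18 in PZ, −0.27 in MZ, 0.00 in HZ and 1.32 in FCC by a probe set that can match several transcripts. FZ and FCC were the high arrays there and for Daam2. The other probe set of Apc2 was at 0.43 in FZ, 0.16 in PZ, −1.35 in MZ, −0.94 in HZ and 0.00 in FCC, so that the superficial zones were its high arrays. Btrc, the subunit that recognises marked beta-catenin for destruction, was at −0.12 in FZ, −2.49 in PZ, 0.25 in MZ, 0.12 in HZ and 0.00 in FCC by 1 of 3 probe sets. The low value in PZ was not shared by the others, which had ranges of 0.49 and 0.57 with 0.35 and 0.00 in PZ. Tmem88, a membrane protein that binds Dishevelled, was at 0.00 in FZ, −1.21 in PZ, 0.89 in MZ, 0.64 in HZ and −0.40 in FCC.

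Against FCC at a threshold of 1, this list had 8 probe sets higher and 0 lower in FZ, or 11.9% and 0.0% against a background of 6.42% and 4.0%. In PZ it had 8 and 5, or 11.9% and 7.46% against 5.9% and 7.76%. For MZ the counts were 9 and 3, or 13.4% and 4.48% against 7.6% and 4.58%, and for HZ 7 and 4, or 10.4% and 5.97% against 8.76% and 5.73%. Between superficial and deep zones it had 5 higher and 5 lower, 7.46% each against 2.17% and 3.48%. Its medians against FCC lay between 0.00 for HZ and 0.14 for FZ.

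Genes known as targets of the pathway in various tissues came from a list of 19, of which 16 were measured by 31 probe sets, and 6 genes varied by at least 2. Many of them have other regulators as well. Mycn, a transcription factor of growing cells, was at 3.11 in FZ, 2.23 in PZ, 0.00 in MZ, −0.35 in HZ and −0.62 in FCC. Nrcam, a cell adhesion protein, had 3 probe sets past 2, and the widest was at 1.69 in FZ, 1.23 in PZ, 0.00 in MZ, −1.28 in HZ and −1.40 in FCC. Both genes were high in the superficial zones, as Wnt9a was, and any link with Wnt9a was not tested. FCC was lowest in both by these probe sets, whereas it lay between the superficial and deep zones for Wnt9a. The other probe sets of Nrcam were lowest in HZ, at −0.47 and −0.48, with −0.01 and −0.14 in FCC.

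Ccnd1, the cyclin that drives entry into the cell cycle, was at 0.00 in FZ, −0.10 in PZ, 0.30 in MZ, 0.50 in HZ and −1.65 in FCC by 1 probe set, and at 0.00 in FZ, −0.46 in PZ, 0.35 in MZ, 0.06 in HZ and −1.68 in FCC by another. The remaining probe set had a range of 0.50, with −0.29 in FCC, still the lowest array. Myc was at 0.93 in FZ, −0.20 in PZ, 0.23 in MZ, 0.00 in HZ and −1.34 in FCC. FCC was the low array for both genes, as it was for Tcf7. It was also lowest for Cd44, a hyaluronan receptor, at 0.94 in FZ, 0.53 in PZ, −0.11 in MZ, 0.00 in HZ and −1.90 in FCC, and for Vcan, a proteoglycan, at 0.89 in FZ, −1.11 in PZ, 0.34 in MZ, 0.00 in HZ and −1.64 in FCC, each by its widest probe set. Of the other probe sets of Vcan, 3 had ranges of 1.60 to 1.84 with FCC lowest, and 1 had a range of 0.43 with PZ lowest.

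Against FCC at a threshold of 1, the target list had 15 of 31 probe sets higher and 0 lower in FZ, with a median of 0.91. These are 48.4% and 0.0%, against 6.42% and 4.0% of all probe sets. In PZ it had 12 and 2 with a median of 0.61, or 38.7% and 6.45% against 5.9% and 7.76%. For MZ it had 10 and 0 with a median of 0.17, or 32.3% and 0.0% against 7.6% and 4.58%, and for HZ 8 and 1 with a median of 0.15, or 25.8% and 3.23% against 8.76% and 5.73%. Several probe sets belong to 1 gene, so these are not independent genes. The 15 in FZ belong to Vcan, Nrcam, Cd44 and Ccnd1, with several each, and to Myc, Mycn, Fosl1 and Twist1. By 1 mean value per gene, averaged over the MCC zones, 6 of 16 genes were at least 1 higher than in FCC and 0 lower. The list was chosen with earlier results of these data known. By probe sets, superficial zones had 7 higher and 0 lower than deep ones, 22.6% and 0.0% against 2.17% and 3.48%. When the hybridization controls are made equal, these medians against FCC move up by 0.65 for FZ, 0.52 for MZ and 0.525 for HZ.

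**Figure D5:**
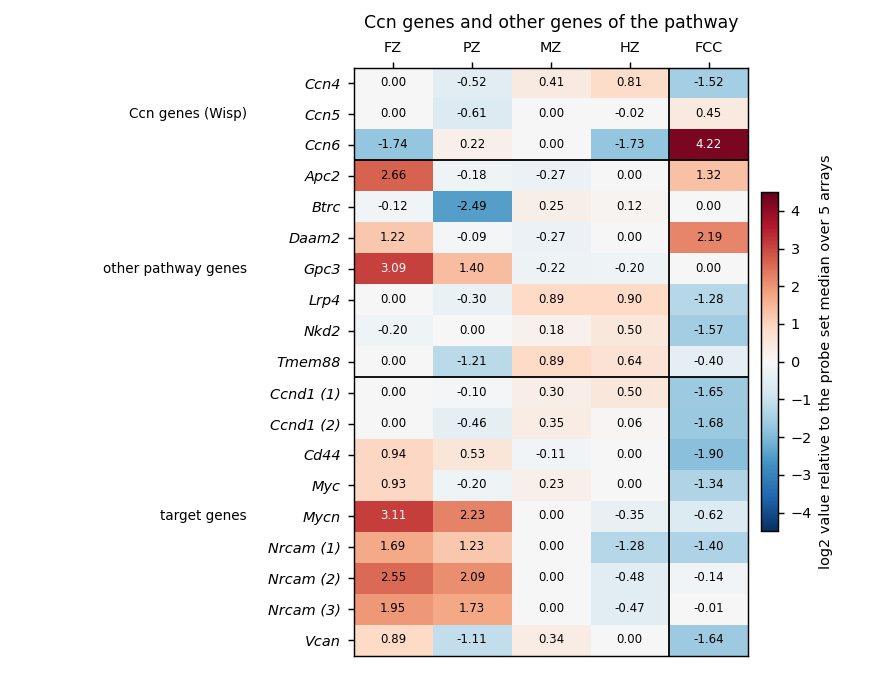
Log2 values (0 at the middle array of each row) of the 3 Ccn genes and of the probe sets with a range of at least 2 among the other pathway genes and the target genes. Rows are probe sets (a number in parentheses separates probe sets of a gene) and columns are arrays, 1 per group. Ccn6 is highest in FCC at 4.22, and Mycn in FZ at 3.11.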

How the data were processed

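Laser-captured cells of 5 groups were measured on Affymetrix rat genome arrays, 1 array per group. The deposited values are on a log2 scale and were made by the authors with RMA, that is, quantile normalization across arrays and log2, after which each probe set was set to 0 at its middle array. MAS5 is also named in the submitters' processing notes, and a genome build was not needed for values per probe set. All 31099 probe sets have a median of 0, so the values hold neither level nor signal over background, and the number of arrays limits the precision.

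Apart from 57 controls, the 20826 probe sets with 1 gene symbol formed the background, and 436 with several symbols and 9780 not listed stayed out. Differences between arrays and counts at log2 thresholds of 2 (the study's) and 1 were computed with Python 3.11.15, numpy 2.4.6, pandas 2.3.3 and matplotlib 3.10.9, and the counting was tested on simulated data. Values in every array were given for genes with a probe set whose range was at least 2, for the widest gene of each role, and for further members with a range of at least 1 or in contrast to these, chosen after their values were seen. The members and gene lists (other pathway genes, target genes, and markers of cartilage, tendon, hypertrophy, bone, blood, endothelial, muscle and fat cells) were chosen with earlier results of these data known. Alternatives were a shift by hybridization controls, centring on array medians, the mean of the probe sets of a gene, omission of shared probe sets, and the lower threshold.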

Additional observations from a re-analysis of the deposited data

Results flagged for a closer look

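Member probe sets at least 1 above FCC in one zone and at least 1 under it in another were singled out, and the difference between the zones was not tested, as each has 1 array. Wnt9a was at 1.35 in PZ and −1.09 in HZ relative to FCC. Dkk3, by its widest probe set, was at 1.18 in FZ and −1.33 in HZ. Sfrp2, by its wider probe set, was at 1.27 in FZ and −1.004 in MZ. PZ, also a superficial zone, was at −0.37 for Sfrp2. The shift to equal hybridization controls raises all differences from FCC in a zone equally. It moves the member median from −0.01 to 0.51 in HZ and from 0.00 to 0.52 in MZ. Wnt9a and Dkk3 in HZ and Sfrp2 in MZ would then no longer lie at least 1 under FCC. Their values above FCC would still pass 1.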

How the results depend on the processing

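Centring on array medians moved no value, as those medians are already equal, and so is no check of stability. Omission of shared probe sets kept all 15 counts of members within 1.5 times. After the shift by hybridization controls, 4-fold higher members against FCC numbered 2 in FZ (Fzd1 and Tcf7), 2 in MZ (Tcf7 and Wnt4) and 5 in HZ (Fzd3, Lef1, Tcf7 and 2 probe sets of Tcf7l2), while 1 was lower in FZ and 1 in HZ, Lgr6 in both. The shares of all probe sets under that shift were 3.31% (FZ), 3.15% (MZ) and 4.17% (HZ) higher, and 0.783% (FZ) and 1.31% (HZ) lower. The same shift gave 3 members higher in FZ than in PZ (Fzd1, Sfrp2 and Sfrp4), where 2.37% of all probe sets passed, and the other 9 counts kept within 1.5 times. Among these 9, the count by a range of at least 2 rose from 13 to 19 of 106. The share of all probe sets by range was not recomputed with the shift. With the mean of the probe sets of a gene, 1 gene, Fzd3, was higher in HZ than in FCC, as Tcf7l2 then differed by 1.09, and 14 counts kept within 1.5 times. At a threshold of 1 the counts higher and lower against FCC were 7 and 6 for FZ, 6 and 8 for both PZ and MZ, and 8 and 7 for HZ, those for superficial against deep zones 5 and 3, for FZ against PZ 6 and 5, and for MZ against HZ 1 and 1, and 31 probe sets passed by range. The causes were not tested. With 1 array per group no replicate could be left out, and depth of signal cannot be read from the values.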
